A study of Homo sapiens with 12 samples.

Results

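The 10 glycosyltransferases described here build the sugar chains of globosides and gangliosides, the main families of glycosphingolipids. They are B3GALNT1, A4GALT, UGCG, B4GALT5, B4GALT6, ST3GAL5, B4GALNT1, ST8SIA1, ST3GAL2 and B3GALT4. They were taken by gene symbol from the 45478 genes of the count table, where all 10 have a row. The set was chosen by the counts of B3GALNT1 in these libraries, whose transcript fell strongly in both sunitinib-resistant groups. The values of B3GALNT1 in those comparisons are therefore a description and carry no test.

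The mRNA of 2 human renal cell carcinoma lines and of their sunitinib-resistant derivatives was sequenced, with 3 libraries in each of 4 groups. 786-O and A498 are established clear cell renal carcinoma lines that lack functional VHL, the protein that marks hypoxia-inducible factors for destruction. They were grown in medium with 25 mM glucose and 10% serum. Sunitinib inhibits receptor tyrosine kinases, the VEGF and PDGF receptors among them. By the study's account, resistant 786-O cells came from 786-O kept in sunitinib until stable growth at 4 µM. By the same account, resistant A498 cells came from A498 kept in sunitinib until stable growth at 2 µM. The untreated lines are called parental. Selection ran for 4 months or more than 20 passages, and the labels give the treatment of all 12 libraries as none. The titles of all 12 carry a code with the letters veh, which the study's methods do not explain. The labels name no clone and do not say whether the libraries of a group came from separate cultures. The p-values below then measure only the spread among these libraries.

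Glycosphingolipids start from ceramide in the Golgi. UGCG adds glucose to ceramide, and B4GALT5 or B4GALT6 adds galactose to give lactosylceramide, the branch point of the pathway. On the globo-series branch A4GALT adds an alpha-linked galactose to make Gb3, and B3GALNT1 adds N-acetylgalactosamine to make Gb4, or globoside. On the ganglioside branch ST3GAL5 adds sialic acid to make GM3, ST8SIA1 adds a second sialic acid to make GD3, B4GALNT1 makes GM2 or GD2, B3GALT4 makes GM1 or GD1b, and ST3GAL2 sialylates terminal galactose. Globosides are abundant lipids of kidney epithelium. No lipid was measured here, and the values are transcript levels.

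The 12 libraries held between 20042519 and 47972092 counts assigned to genes. Levels are given as CPM, counts scaled to a common library size after normalization by trimmed mean of M values (TMM). A gene was called when the adjusted p of the edgeR quasi-likelihood test, over 19929 genes, was below 0.05. The libraries labelled resistant A498 stood nearer to parental 786-O than to parental A498. Their median correlation of log2 CPM was 0.951 with parental 786-O and 0.982 with resistant 786-O against 0.87 with parental A498. The 62 genes at 10 CPM or more in parental A498 and at no more than 3 counts in every parental 786-O library had a median level in resistant A498 of 0.362% of that in parental A498. The 26 genes of the opposite pattern were at 79.9% of their parental 786-O level. The libraries labelled resistant A498 are therefore compared below with both parental lines. Each group also has its own batch label, so batch and group cannot be told apart.

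All 4 groups carried transcripts of renal epithelium. PAX8, a transcription factor of kidney lineage, had group means of 200 to 312 CPM, and 7 or 8 of 9 renal carcinoma and tubule genes reached 1 CPM in each group. CA9, a hypoxia-inducible carbonic anhydrase of clear cell carcinoma, did not exceed a mean of 1.29 CPM and was at 0 in resistant 786-O. NDUFA4L2, another gene of this list, had group means of only 0.474 to 0.573 CPM. None of 7 leukocyte genes reached 1 CPM in any group, with summed levels of 0 to 0.59 CPM. The 4 endothelial genes summed to 0.143 to 2.66 CPM, with the upper values in parental A498. In such bulk RNA, fewer cells that express a gene and less RNA per cell cannot be told apart.

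B3GALNT1 lies on chromosome 3 at 161083883 to 161105411, on the minus strand, in GENCODE 44 on GRCh38. The sequence just before its annotated start is shown because B3GALNT1 is the transcript the description turns on. Those of UGCG and B4GALT5, the enzymes of the steps that supply lactosylceramide, are shown beside it for comparison. The sequences come from the RefSeq promoter table for GRCh38.p14, in which 6 of the 10 genes had an entry. Each is printed 5′ to 3′ on the gene's own strand, and capitals mark every CG dinucleotide. They cover chr3:161105412-161105599 (188 bases, minus strand), chr9:111896564-111896813 (250 bases, plus strand) and chr20:49713879-49714128 (250 bases, minus strand).
B3GALNT1: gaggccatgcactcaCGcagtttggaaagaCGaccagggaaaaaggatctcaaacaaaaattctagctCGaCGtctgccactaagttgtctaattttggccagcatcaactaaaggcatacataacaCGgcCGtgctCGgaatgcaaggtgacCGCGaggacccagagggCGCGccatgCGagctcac
UGCG: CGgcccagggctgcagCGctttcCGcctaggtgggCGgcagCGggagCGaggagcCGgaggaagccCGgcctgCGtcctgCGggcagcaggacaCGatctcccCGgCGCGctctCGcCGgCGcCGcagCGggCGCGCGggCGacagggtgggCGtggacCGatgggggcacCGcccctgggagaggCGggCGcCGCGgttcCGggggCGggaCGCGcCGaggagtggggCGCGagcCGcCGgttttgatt
B4GALT5: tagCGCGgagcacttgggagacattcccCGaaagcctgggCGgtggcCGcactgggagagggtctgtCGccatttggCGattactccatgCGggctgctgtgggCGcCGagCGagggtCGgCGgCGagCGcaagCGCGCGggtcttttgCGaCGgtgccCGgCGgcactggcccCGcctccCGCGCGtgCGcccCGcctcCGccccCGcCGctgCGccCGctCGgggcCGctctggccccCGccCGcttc

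The B3GALNT1 stretch held 12 CG dinucleotides, or 6.38 per 100 bases, with a GC content of 52.7%. The UGCG stretch held 39 (15.6 per 100 bases, 78.4% GC) and the B4GALT5 stretch 37 (14.8 per 100 bases, 75.6% GC). The median over 35116 RefSeq promoters of 250 bases was 4.4 per 100 bases and 58.0% GC. The letters GGGCGG, searched on both strands, occurred 3 times in each of the UGCG and B4GALT5 stretches and in 42.6% of all promoters, and were not in the B3GALNT1 stretch. The table holds other B3GALNT1 starts, and 1 of the 3 windows of 250 bases did contain these letters. Those 3 windows held 20, 26 and 28 CG dinucleotides, and 32.4%, 19.6% and 15.9% of all promoters held at least as many. The printed stretch is only the part of the first window outside the annotated gene, and it lies within the span of the neighbouring gene NMD3. Its CG count therefore does not stand for the B3GALNT1 promoter as a whole. No methylation or factor binding was measured, so the match is a description of letters only.

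B3GALNT1, the globoside synthase, was nearly lost from both resistant groups. In parental 786-O its level was 25.8, 25.4 and 25.2 CPM, and in parental A498 it was 10.4, 10.0 and 11.3 CPM. In resistant 786-O it was 0.347, 1.74 and 0.372 CPM. In resistant A498 it was 0.0373, 0 and 0.0391 CPM, which came from 1, 0 and 1 counts. The groups ranked parental 786-O, parental A498, resistant 786-O and resistant A498 from high to low, and no library of one group overlapped the next.

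The parental 786-O libraries held 3098 B3GALNT1 counts in all and the resistant 786-O libraries 110, so that parental 786-O stood 32.0-fold above resistant 786-O at equal depth (95% exact counting interval 26.5 to 39.1). The fitted log2 fold change of resistant 786-O against parental 786-O was -4.98 (SE 0.302). Parental A498 stood 387-fold above resistant A498 (counting interval 107 to 3200), and parental 786-O stood 932-fold above it (258 to 7700). These intervals cover counting error only, and their width comes from the 2 counts of the 3 resistant A498 libraries. The fitted log2 fold changes of resistant A498, -8.42 against parental A498 and -9.69 against parental 786-O, rest on these 2 counts and move with the prior count added in the fit. Between the parental lines B3GALNT1 was 2.41-fold higher in parental 786-O than in parental A498 (counting interval 2.23 to 2.6). Between the resistant groups it was 29.1-fold higher in resistant 786-O than in resistant A498 (7.88 to 244).

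The residual B3GALNT1 level of resistant 786-O was uneven. Replicate 2 stood at 6.84% of the parental 786-O mean and replicates 1 and 3 at 1.36% and 1.46%, so replicate 2 was 4.84 times the mean of the other 2. Without it the log2 fold change against parental 786-O was -6.135. Replicate 2 also stood apart over the whole transcriptome, where its counts differed from those of replicates 1 and 3 by a chi-square per gene of 49.7 and 49.4 against 8.01 between replicates 1 and 3. In all, 7 genes at 10 CPM or more in parental 786-O were at least 30-fold lower in replicates 1 and 3. Replicate 2 was higher than the mean of the other 2 in 6 of these 7, by a median of 3.83-fold. When replicate 1 or 3 was taken in its place, 3 and 2 genes qualified and the medians were 0.469 and 0.426. The 7 genes were chosen for low values in replicates 1 and 3, which favours a higher value in replicate 2. B3GALNT1 itself is among the 7. The choices with replicate 1 or 3 need a low mean that includes replicate 2, so their medians are no control. The part of replicate 2 in these values beyond its own level was not tested.

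**Figure D1:**
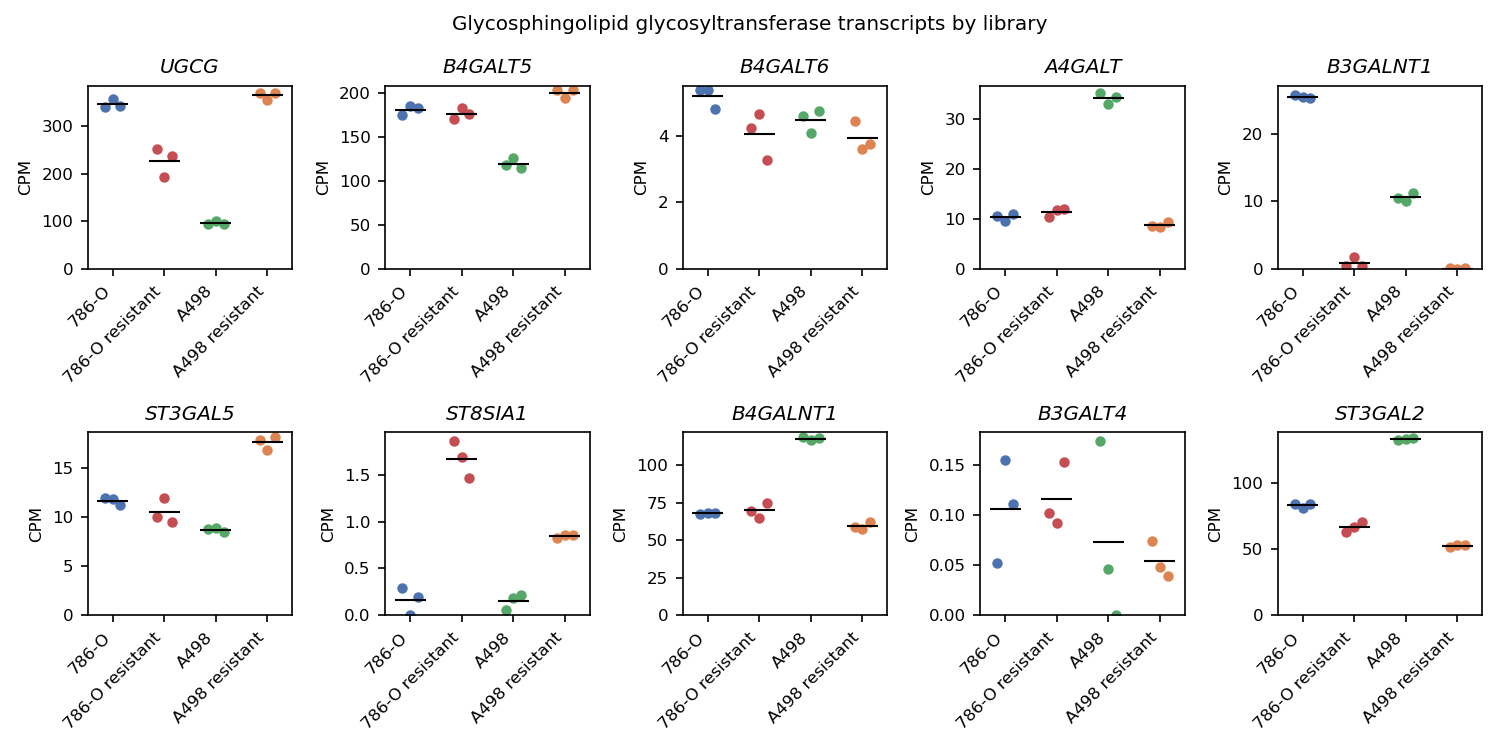
Level of each of the 10 glycosyltransferases in the 12 libraries, in CPM after TMM scaling, with a separate linear axis from 0 for each gene, 1 point for each library and a line at each group mean. B3GALNT1 lay at 25.2 to 25.8 CPM in parental 786-O and at or below 1.74 CPM in every resistant 786-O and resistant A498 library, while UGCG was lowest in parental A498.

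In resistant 786-O against parental 786-O, 8 of the other 9 enzymes had enough counts to be tested and 4 were called, 1 higher and 3 lower. Of all genes tested 68.5% were called, 35.0% higher and 33.5% lower. Against parental A498, 7 were called in resistant A498, 4 higher and 3 lower, beside 72.7% of all genes, 36.3% higher and 36.4% lower. Against parental 786-O, 7 were called in resistant A498, 3 higher and 4 lower, beside 63.6% of all genes, 31.6% higher and 32.1% lower. Their median log2 fold changes were -0.10, 0.28 and -0.06, against medians over all genes tested of 0.03, -0.00412 and 0.00293. With library size alone as the scaling, the median of all genes moved to 0.18 in resistant 786-O against parental 786-O and the calls became 3 higher and 2 lower. The resistant A498 against parental 786-O split then became 4 higher and 1 lower, with a median of all genes of 0.15. Calls with an absolute log2 fold change over 1 numbered 1, 5 and 1 of the 8 in these comparisons, where 22.0%, 30.8% and 20.0% of all genes were so called. The 5 were UGCG, A4GALT, ST3GAL5, ST8SIA1 and ST3GAL2 in resistant A498 against parental A498, and ST8SIA1 was the 1 in each of the others. ST8SIA1 was also the 1 enzyme called higher in resistant 786-O with TMM scaling. It passed the filter on low counts only through the groups in which it was high, so its calls add little to these counts.

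**Figure D2:**
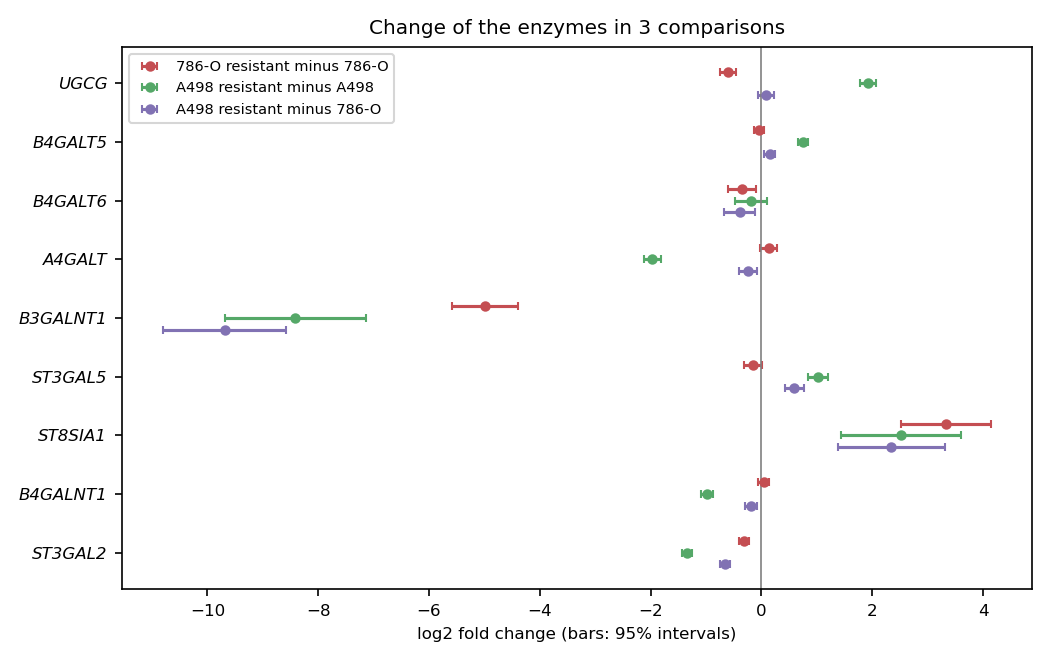
Log2 fold changes of the 9 enzymes that passed the filter on low counts, with bars of 95% intervals, in resistant 786-O against parental 786-O and in resistant A498 against parental A498 and against parental 786-O. B3GALNT1 lay at -4.98, -8.42 and -9.69, and in resistant A498 the changes of UGCG and A4GALT were 1.93 and -1.97 against parental A498 but 0.08 and -0.24 against parental 786-O.

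UGCG, glucosylceramide synthase, commits ceramide to the pathway. Its level was 341, 357 and 342 CPM in parental 786-O and 252, 192 and 237 CPM in resistant 786-O. It was 94.7, 100 and 93.9 CPM in parental A498 and 371, 356 and 369 CPM in resistant A498. UGCG fell in resistant 786-O by 0.61 on the log2 scale (SE 0.0731, adjusted p = 3e-06), with no overlap between the groups. In resistant A498 it rose by 1.93 (SE 0.0767, adjusted p = 7.1e-12) against parental A498. Against parental 786-O the difference was 0.08 (95% interval -0.07 to 0.22, adjusted p = 0.38) and the libraries overlapped. The parental lines themselves differed, with UGCG 1.85 higher in parental 786-O than in parental A498 on the log2 scale (adjusted p = 8.4e-12).

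B4GALT5 and B4GALT6 are the alternative lactosylceramide synthases. B4GALT5 stood at 174, 185 and 182 CPM in parental 786-O, at 170, 183 and 175 CPM in resistant 786-O, at 118, 125 and 114 CPM in parental A498 and at 203, 194 and 203 CPM in resistant A498. Its level in resistant 786-O overlapped that of parental 786-O, with a log2 difference of -0.04 (95% interval -0.13 to 0.05). B4GALT5 rose in resistant A498 by 0.75 (SE 0.0485, adjusted p = 2e-09) against parental A498 and by 0.15 (SE 0.0478, adjusted p = 0.015) against parental 786-O, the latter not called without replicate 1 of parental 786-O (adjusted p = 0.08).

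B4GALT6 was the minor form at 5.39, 5.38 and 4.81 CPM in parental 786-O and 4.25, 4.67 and 3.26 CPM in resistant 786-O. It was at 4.60, 4.09 and 4.75 CPM in parental A498 and at 4.44, 3.59 and 3.76 CPM in resistant A498. B4GALT6 fell in resistant 786-O by 0.35 on the log2 scale (SE 0.129, adjusted p = 0.024). It also fell in resistant A498 by 0.40 against parental 786-O (SE 0.139, adjusted p = 0.022), and the difference from parental A498 was -0.19 (95% interval -0.48 to 0.10). Leaving out replicate 1 or 2 of parental 786-O or replicate 3 of resistant 786-O ended the first call (adjusted p = 0.068, 0.068 and 0.16). Leaving out replicate 1 or 2 of parental 786-O or replicate 2 or 3 of resistant A498 ended the second (adjusted p = 0.058, 0.058, 0.11 and 0.095). With library size alone neither was called, and the resistant 786-O difference turned to 0.09 when trends with GC content and gene length were removed.

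Per kilobase of annotated exons, B4GALT5 exceeded B4GALT6 in every library. The ratio of their levels was 38.1 in parental 786-O, 47.9 in resistant 786-O, 29.1 in parental A498 and 55.9 in resistant A498. The log2 ratio was higher in resistant 786-O than in parental 786-O by 0.33 (SE 0.162), or 0.18 without replicate 3 of resistant 786-O, and higher in resistant A498 by 0.94 (SE 0.132) against parental A498 and 0.55 (SE 0.104) against parental 786-O. In each of the 3 comparisons the libraries of the groups did not overlap and the 2-sided exact permutation p was 0.1, the smallest that 3 libraries against 3 allow. The design cannot reach 0.05.

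A4GALT, the Gb3 synthase just before B3GALNT1, was highest in parental A498. A4GALT stood at 10.5, 9.62 and 10.96 CPM in parental 786-O, at 10.4, 11.8 and 11.98 CPM in resistant 786-O, at 35.3, 33.1 and 34.5 CPM in parental A498 and at 8.54, 8.33 and 9.43 CPM in resistant A498. The resistant 786-O and parental 786-O libraries overlapped, and the log2 difference was 0.14 (95% interval -0.02 to 0.29, adjusted p = 0.14). That difference was called at 0.22 (adjusted p = 0.023) without replicate 1 of resistant 786-O, and at -0.21 (adjusted p = 0.023) when trends with GC content and gene length were removed. In resistant A498 A4GALT fell by 1.97 (SE 0.0816, adjusted p = 1.2e-11) against parental A498 and by 0.24 (SE 0.0845, adjusted p = 0.022) against parental 786-O. Without replicate 1 or 3 of parental 786-O or replicate 1 or 2 of resistant A498 the second call was lost (adjusted p = 0.051, 0.086, 0.11 and 0.13). A4GALT shares 74 exon bases with CYB5R3 on the same strand, 2.2% of its exon length.

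ST3GAL5, the GM3 synthase that opens the ganglioside branch, competes with A4GALT for lactosylceramide. Its level was 11.9, 11.9 and 11.2 CPM in parental 786-O, 9.95, 11.9 and 9.53 CPM in resistant 786-O, 8.74, 8.83 and 8.50 CPM in parental A498 and 17.9, 16.8 and 18.1 CPM in resistant A498. In resistant 786-O the log2 difference from parental 786-O was -0.16 (95% interval -0.32 to 0.01, adjusted p = 0.11), and without replicate 2 of resistant 786-O it was called at -0.26 (adjusted p = 0.0017). ST3GAL5 rose in resistant A498 by 1.02 (SE 0.0881, adjusted p = 5.6e-08) against parental A498 and by 0.60 (SE 0.0835, adjusted p = 1.7e-05) against parental 786-O. The resistant A498 libraries lay above all 9 others.

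The balance of the 2 branch enzymes differed between the groups. The per-kilobase level of ST3GAL5 over that of A4GALT was 0.232 in parental 786-O, 0.189 in resistant 786-O, 0.0522 in parental A498 and 0.414 in resistant A498. The length of all annotated exons was 16300 bases for ST3GAL5 and 3358 for A4GALT, and the size of the ratio rests on these lengths. In mean CPM, ST3GAL5 was above A4GALT in parental 786-O and resistant A498 and below it in the other groups. Differences of the ratio between groups do not depend on the lengths. On the log2 scale the difference between resistant 786-O and parental 786-O was -0.30 (SE 0.129), or -0.20 without replicate 3 of resistant 786-O, and the ratio was higher in resistant A498 by 2.99 (SE 0.0515) than in parental A498 and by 0.84 (SE 0.0839) than in parental 786-O. The groups did not overlap in any of the 3 comparisons, and the exact permutation p was again 0.1 in each. The difference was negative in resistant 786-O and positive in resistant A498.

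ST8SIA1, the GD3 synthase, was near zero in both parental lines and higher in both resistant groups. It had 11, 0 and 9 counts in parental 786-O against 91, 74 and 67 in resistant 786-O. It had 2, 4 and 6 counts in parental A498 against 22, 18 and 22 in resistant A498. These are levels of 0.163 CPM (SD 0.148, n = 3) in parental 786-O and 1.67 CPM (SD 0.198, n = 3) in resistant 786-O, and of 0.155 CPM (SD 0.0857, n = 3) in parental A498 and 0.847 CPM (SD 0.0236, n = 3) in resistant A498. At equal depth resistant 786-O stood 10.2-fold above parental 786-O (counting interval 6.46 to 17.0). Resistant A498 stood 5.87-fold above parental A498 (3.13 to 12) and 5.15-fold above parental 786-O (3.07 to 9.0). The fitted log2 fold changes were 3.32 (SE 0.415, adjusted p = 4.7e-06), 2.51 (SE 0.554, adjusted p = 0.00081) and 2.34 (SE 0.492, adjusted p = 7e-04). ST8SIA1 passed the filter on low counts only through the groups in which it was high, so a difference had to appear, and its calls add little to the counts above.

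B4GALNT1, which makes GM2 and GD2, was higher in parental A498 than in the other 3 groups. It stood at 67.4, 68.2 and 68.2 CPM in parental 786-O, at 69.5, 65.1 and 74.8 CPM in resistant 786-O, at 119, 117 and 118 CPM in parental A498 and at 58.6, 57.8 and 62.0 CPM in resistant A498. The log2 difference of resistant 786-O from parental 786-O was 0.04 (95% interval -0.06 to 0.14), and -0.20 (adjusted p = 0.00095) with trends on GC content and length removed. B4GALNT1 fell in resistant A498 by 0.99 (SE 0.0529, adjusted p = 2.3e-10) against parental A498 and by 0.19 (SE 0.0528, adjusted p = 0.0052) against parental 786-O, the latter not called without replicate 2 of resistant A498 (adjusted p = 0.058). Its exons share 2136 bases, 27.1% of their length, with SLC26A10P on the other strand, which had 162 to 608 counts per library, so a part of either count could be exchanged.

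ST3GAL2, which adds terminal sialic acid to gangliosides and can also extend globo-series chains, was lower in both resistant groups. It stood at 83.8, 80.8 and 84.2 CPM in parental 786-O, at 63.0, 66.7 and 70.2 CPM in resistant 786-O, at 132, 133 and 134 CPM in parental A498 and at 51.3, 52.8 and 52.9 CPM in resistant A498. ST3GAL2 fell in resistant 786-O by 0.31 on the log2 scale (SE 0.0464, adjusted p = 2.5e-05). In resistant A498 it fell by 1.35 (SE 0.0481, adjusted p = 2e-12) against parental A498 and by 0.66 (SE 0.0478, adjusted p = 1.4e-08) against parental 786-O. None of these 3 comparisons had overlapping libraries. Its exons share 590 bases, 6.05% of their length, with the long non-coding RNA ENSG00000260111 on the other strand, which had 124 to 493 counts per library. Of the 8 enzymes tested, ST3GAL2 was the only one called lower in all 3 comparisons. B3GALT4, the GM1 synthase, had 0 to 7 counts in every library and 40 in all, and was not tested, and no difference was detectable at this depth.

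The change in resistant A498 against parental A498 and the change in resistant 786-O against parental 786-O differed in 6 of the 8 enzymes by the interaction test, 3 higher and 3 lower, beside 68.3% of all genes, 33.9% higher and 34.4% lower. UGCG, B4GALT5 and ST3GAL5 had the higher change in resistant A498, and A4GALT, B4GALNT1 and ST3GAL2 the lower. Between the parental lines themselves 6 of the 8 were also called, 3 higher in parental 786-O and 3 lower, beside 74.2% of all genes, 38.2% higher and 36.1% lower. The comparison of resistant A498 with parental A498 and that of parental 786-O with parental A498 share the parental A498 libraries, so their values are given side by side only. UGCG was at 1.93 and 1.85, A4GALT at -1.97 and -1.73, B4GALT5 at 0.75 and 0.60, ST3GAL5 at 1.02 and 0.42, B4GALNT1 at -0.99 and -0.79 and ST3GAL2 at -1.35 and -0.68. B3GALNT1 and ST8SIA1 were at -8.42 and 1.27 and at 2.51 and 0.17.

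Other transcripts had a pattern near that of B3GALNT1 over the 12 libraries. Likeness was the root mean square difference of log2 CPM after each gene was centred on its own mean, among 12874 genes with a group mean of at least 5 CPM. The nearest was PLEK2, a pleckstrin homology protein of the actin cytoskeleton, with a difference of 0.598 and a Pearson r of 0.985. It stood at 24.8, 23.9 and 23.9 CPM in parental 786-O, at 4.49, 4.65 and 4.67 CPM in parental A498, at 0.368, 1.28 and 0.284 CPM in resistant 786-O and at 0.0373, 0.0479 and 0 CPM in resistant A498. All 12 libraries entered the choice of PLEK2, so its likeness to B3GALNT1, replicate 2 of resistant 786-O included, follows from that choice.

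MALL, a membrane raft protein, came next with a difference of 0.962 and an r of 0.959, and had group means of 12.1, 0.349, 24.0 and 0.0414 CPM in parental 786-O, resistant 786-O, parental A498 and resistant A498. ENSG00000260401, a long non-coding RNA (0.969, r 0.958), and P2RY2, a purinergic receptor (1.03, r 0.957), followed. The first lies within P2RY2 on the same strand of chromosome 11, so their reads may be shared and they are not separate cases. PRTFDC1, a relative of a purine salvage enzyme, was the fifth (1.17, r 0.936), with group means of 5.98, 0.149, 12.6 and 0.0284 CPM. Among the 7 other enzymes at or above that 5 CPM limit, r with B3GALNT1 ran from -0.663 for ST3GAL5 to 0.785 for ST3GAL2, and A4GALT was at 0.498. These correlations are descriptions over 12 libraries that share 4 group means and have no p.

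**Figure D3:**
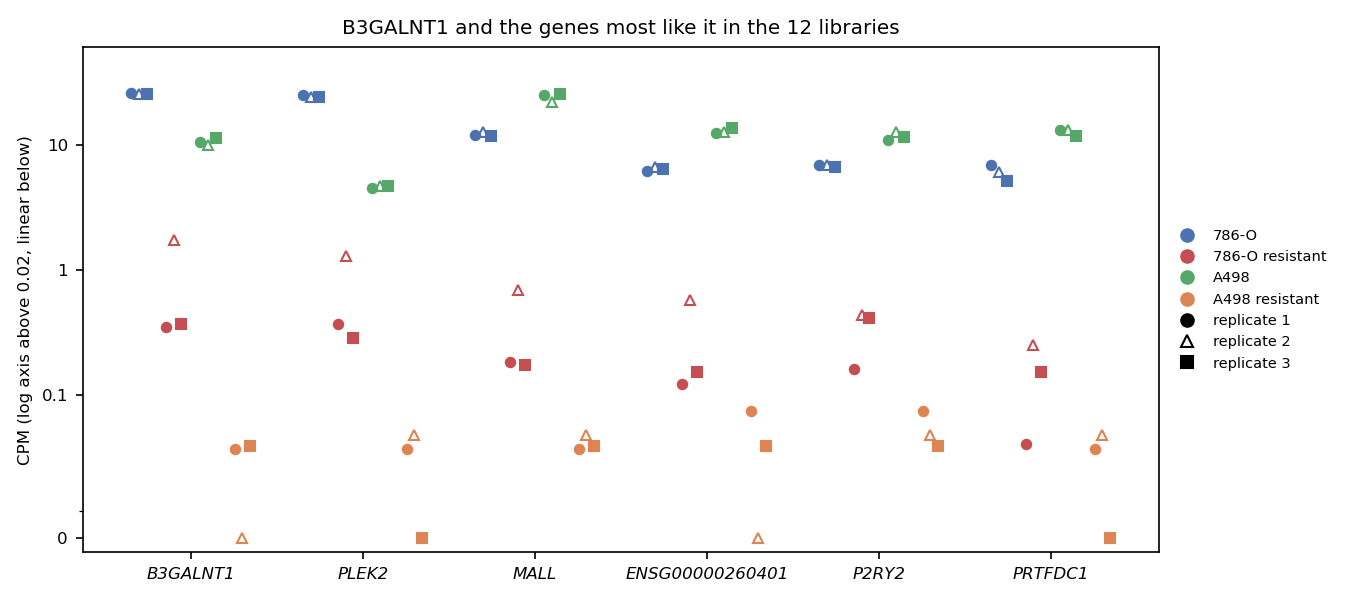
CPM of B3GALNT1 and of the 5 genes whose pattern was nearest to it, for each of the 12 libraries, on an axis that is logarithmic above 0.02 CPM and linear below. The 5 genes were chosen for likeness to B3GALNT1, so their low values in both resistant groups are part of that choice. PLEK2 in resistant 786-O reached 1.28 CPM in replicate 2 against 0.284 and 0.368 CPM in the others.

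The genes around B3GALNT1 were also described. Within 1 Mb of its start, 11 genes had a mean of at least 1 CPM in some group. In resistant 786-O 2 were called higher and 5 lower than in parental 786-O, in resistant A498 5 and 5 against parental A498, and 2 and 7 against parental 786-O. The shares called among all genes in these comparisons were 68.5%, 72.7% and 63.6%. NMD3, an export adaptor of the large ribosomal subunit, starts 0.715 kb from B3GALNT1 and runs the other way, at 161104696 to 161253532 of chromosome 3. It stood at 83.4, 79.8 and 79.9 CPM in parental 786-O, at 51.1, 54.8 and 43.2 CPM in resistant 786-O, at 68.4, 66.3 and 65.9 CPM in parental A498 and at 56.4, 52.8 and 54.3 CPM in resistant A498. NMD3 fell by 0.71 (adjusted p = 3.3e-07) in resistant 786-O, and in resistant A498 by 0.30 (adjusted p = 0.0016) against parental A498 and 0.57 (adjusted p = 4.2e-06) against parental 786-O. The exons of both genes overlap by 190 bases on opposite strands, 2.43% of those of B3GALNT1. With 1514, 1103 and 1388 counts of NMD3, the resistant A498 libraries had 1, 0 and 1 of B3GALNT1.

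PPM1L, a phosphatase of the PP2C family that acts on the ceramide transfer protein, rose in both resistant groups. It stood at 0.973, 1.27 and 1.20 CPM in parental 786-O, at 4.70, 2.56 and 3.89 CPM in resistant 786-O, at 3.82, 3.90 and 3.35 CPM in parental A498 and at 8.98, 8.71 and 9.12 CPM in resistant A498. PPM1L rose by 1.70 (adjusted p = 2e-06) in resistant 786-O, and in resistant A498 by 1.28 (adjusted p = 7.8e-06) against parental A498 and 2.96 (adjusted p = 4.2e-09) against parental 786-O. The genes of SMC4, a condensin subunit, TRIM59 and KPNA4, an importin, lie farther out. They fell in resistant 786-O by 0.77, 1.36 and 0.59. In resistant A498 they rose against parental A498 by 0.72, 0.29 and 0.50 and fell against parental 786-O by 0.26, 0.63 and 0.12. C3orf80 and IFT80 stood at group means of 0.749 to 1.26 CPM and 7.4 to 12 CPM. The pseudogenes KRT8P12 and RPL23AP42 and the non-coding RNAs LINC02067 and ENSG00000269888, at 0.74 to 7.87 CPM, may share reads with copies or with each other and are uncertain.

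**Figure D4:**
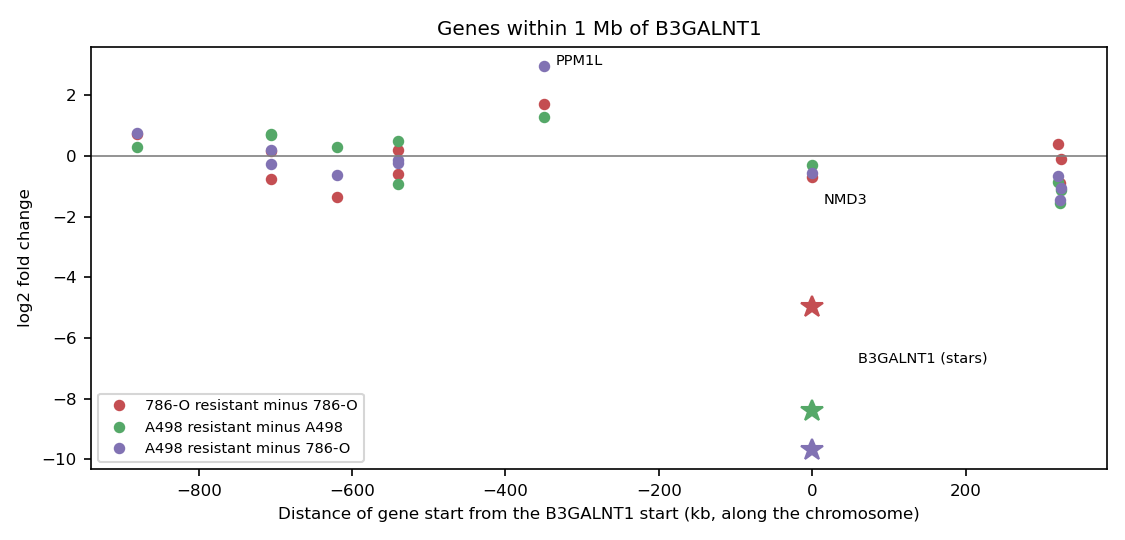
Log2 fold changes of B3GALNT1 (stars) and of the 11 genes within 1 Mb of its start against the distance of their starts in kilobases, in resistant 786-O against parental 786-O and in resistant A498 against parental A498 and parental 786-O. The neighbours lay between -1.56 and 2.96, and B3GALNT1 at -4.98, -8.42 and -9.69.

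A list of 60 other genes of sphingolipid metabolism was also described, of which 50 had enough counts. In resistant 786-O 20 were called higher and 18 lower, in resistant A498 21 and 17 against parental A498, and 22 and 12 against parental 786-O, beside the shares of all genes given above. With library size alone the list gave 25 higher and 16 lower in resistant 786-O, 22 and 15 in resistant A498 against parental A498, and 30 and 8 against parental 786-O. The genes that make ceramide or, like the ORMDL genes, regulate its synthesis were mixed, with 4 higher and 7 lower of 14 tested in resistant 786-O. CERS4, a ceramide synthase for long acyl chains, had 4, 4 and 2 counts in parental 786-O and 385, 293 and 394 in resistant 786-O. It rose in resistant 786-O by 6.49 on the log2 scale (SE 0.215, adjusted p = 2.7e-12). CERS4 stood at 14.5, 13.4 and 13.8 CPM in parental A498 and at 7.08, 8.61 and 7.36 CPM in resistant A498, and fell by 0.86 against parental A498 (adjusted p = 5.2e-06). Against parental 786-O it rose in resistant A498 by 6.48 (adjusted p = 4.4e-12). CERS4 passed the filter on low counts through the other 3 groups, so a difference from parental 786-O had to appear in some group, though not in resistant 786-O in particular. KDSR, the reductase of the second step, rose by 1.42 in resistant A498 against parental A498. Its difference from parental 786-O was 0.16 (SE 0.0805, adjusted p = 0.087), and it was at group means of 72.1 and 73.3 CPM in parental 786-O and resistant 786-O.

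Of the 3 transfer proteins, GLTP, the cytosolic glycolipid transfer protein, fell in resistant 786-O by 1.27 (SE 0.0508, adjusted p = 2.3e-11), from a mean of 51.1 CPM (SD 1.15) to 21.2 CPM (SD 0.788). It stood at 31.0 CPM (SD 0.988) in parental A498 and 20.5 CPM (SD 0.478) in resistant A498, where it fell by 0.60 (adjusted p = 1e-07) against parental A498 and by 1.32 (adjusted p = 2.5e-11) against parental 786-O. CERT1 and PLEKHA8, which carry ceramide and glucosylceramide, were not called in resistant 786-O, at -0.02 (SE 0.0574) and 0.08 (SE 0.0771). In resistant A498 both were called higher against parental 786-O, at 0.32 (adjusted p = 0.00021) and 0.48 (adjusted p = 6.9e-05). Against parental A498, CERT1 was not called, at -0.11 (SE 0.0588), and PLEKHA8 was called higher, at 0.36 (adjusted p = 0.00087). Of the 6 genes that put ceramide to other uses, 4 were called lower and 0 higher in resistant 786-O, 5 higher and 0 lower in resistant A498 against parental A498, and 2 each way against parental 786-O. UGT8, which makes galactosylceramide, fell in resistant 786-O by 1.10 (SE 0.058, adjusted p = 4e-10). It rose in resistant A498 against parental A498 by 1.52 (SE 0.0645, adjusted p = 1.6e-11), and fell against parental 786-O by 0.59 (adjusted p = 4.6e-07). CERK, ceramide kinase, fell in resistant 786-O by 1.14 (SE 0.107, adjusted p = 2.2e-07). In resistant A498 CERK fell by 1.30 (SE 0.111, adjusted p = 9.1e-08) against parental 786-O. Its difference from parental A498 was -0.15 (SE 0.116, adjusted p = 0.27).

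Of 12 tested glycosyltransferases outside the 10, 3 were called higher and 5 lower in resistant 786-O. B3GALT5, an enzyme of lacto-series and stage-specific globo-series chains, fell in resistant 786-O by 1.07 (SE 0.0978, adjusted p = 1.7e-07), from 48.5 CPM (SD 2.35) to 23.1 CPM (SD 4.41). Its mean was 29.2 CPM in parental A498 and 38.2 CPM in resistant A498, which was 0.39 higher than parental A498 (adjusted p = 0.003) and 0.35 lower than parental 786-O on the log2 scale. ST3GAL1, a sialyltransferase that acts mainly on glycoproteins, fell in resistant A498 against parental A498 by 1.28 (SE 0.138, adjusted p = 6.8e-07). Its difference from parental 786-O was -0.20 (SE 0.138, adjusted p = 0.21) in resistant A498 and -0.04 (SE 0.134) in resistant 786-O. GBGT1, related to the enzyme that extends globoside to Forssman antigen, was named after its values were seen because globoside is the product of B3GALNT1. Its mean did not exceed 0.532 CPM. GBGT1 had 66 counts in the 3 parental 786-O libraries, 9 in resistant 786-O, 1 in parental A498 and 1 in resistant A498. It fell in resistant 786-O by 2.98 on the log2 scale (SE 0.494, adjusted p = 7.9e-05), but it passed the filter on low counts only through parental 786-O, so a difference had to appear.

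The genes of sphingolipid breakdown were mostly higher in resistant 786-O. Of 15 tested, 13 were called higher and 1 lower, with a median log2 fold change of 0.83 against 0.03 over all genes. The split was the same with trends on GC content and length removed, where the median was 0.58 against 0.01 over all genes. Library size alone also gave this split, but it raised the median of all genes to 0.18 and so is no check on it. In resistant A498 10 were called higher and 1 lower against parental 786-O (median 0.98), and 9 higher and 5 lower against parental A498 (median 0.29). NEU1, the lysosomal sialidase, had means of 83.5, 332, 86.4 and 308 CPM in parental 786-O, resistant 786-O, parental A498 and resistant A498. It rose by 1.99 (SE 0.0463, adjusted p = 8.5e-14) in resistant 786-O and by 1.83 (SE 0.0466, adjusted p = 4.3e-14) in resistant A498 against parental A498 and by 1.89 against parental 786-O.

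PSAP, the precursor of the saposin cofactors, rose by 1.11 in resistant 786-O and by 1.47 in resistant A498 against parental A498, with SEs of 0.0393 and 0.0397, and by 1.26 (SE 0.0394) against parental 786-O. HEXA, a subunit of beta-hexosaminidase, which removes the sugar that B3GALNT1 and B4GALNT1 add, rose by 1.08, 1.43 and 1.01 in the same comparisons. ASAH1, acid ceramidase, rose by 2.26 in resistant A498 against parental A498 (SE 0.0836, adjusted p = 3e-12) and by 1.26 against parental 786-O (SE 0.0793, adjusted p = 3.3e-09). GLA, the galactosidase that removes the sugar added by A4GALT, had means of 43.7 CPM (SD 0.504) in parental 786-O, 54.5 CPM (SD 5.53) in resistant 786-O, 108 CPM (SD 1.81) in parental A498 and 61.1 CPM (SD 3.83) in resistant A498. The lists were compiled with earlier results of these data known, and their counts are descriptions beside the background shares above.

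**Figure D5:**
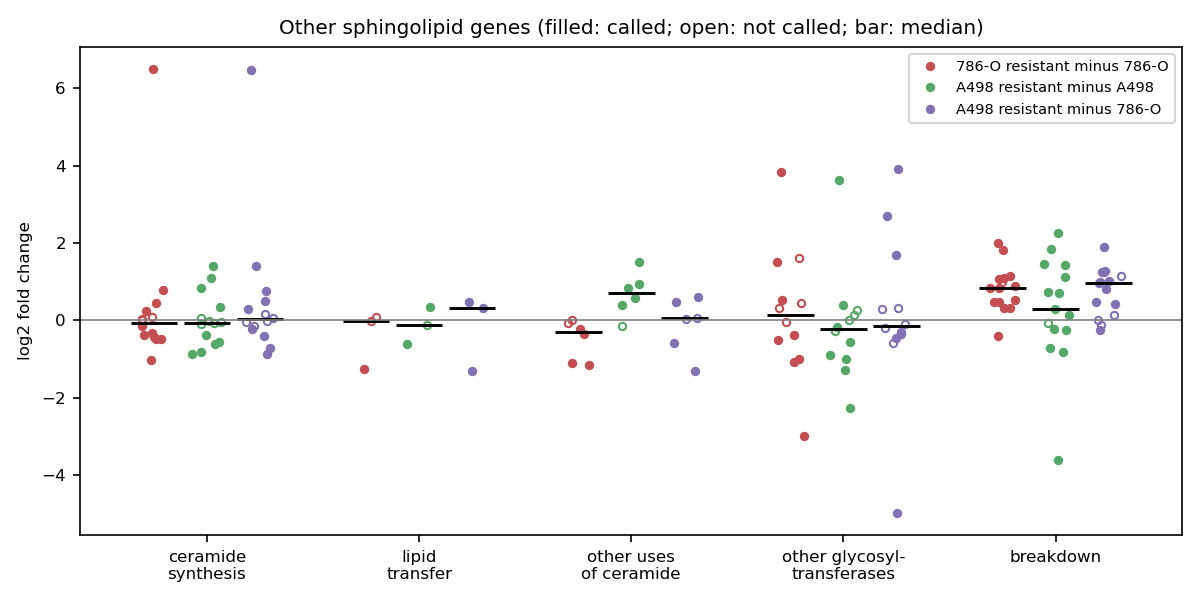
Log2 fold changes of the 50 tested sphingolipid genes outside the 10 enzymes, in 5 groups by role and 3 comparisons, with filled points for called genes, open points for the others and a bar at each median. The breakdown group had 13 of 15 genes called higher in resistant 786-O, and the points beyond 6 are CERS4 against parental 786-O, where it had 2 to 4 counts.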

How the data were processed

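Messenger RNA of 12 libraries was read as paired ends after preparation with a kit that keeps strand. Per the labels and the study's methods, the authors trimmed reads with Trimmomatic 0.36.6, aligned them to GRCh38 with HISAT2 2.1.0 and deposited raw counts per gene from featureCounts 1.6.3 with GENCODE 33, counting by strand. Whether the strand setting matched the kit was not tested. The antisense gene VIM-AS1 held 22.8% to 37.7% of the counts of VIM in the 12 libraries, so counts of genes that overlap on opposite strands may be mixed. Here the deposited counts of 45478 genes were fitted in edgeR 4.0.16 (R 4.3.3) with 4 group means, TMM scaling, the filterByExpr filter and the quasi-likelihood test with Benjamini-Hochberg adjustment over 19929 genes, threshold 0.05. The study's methods name a test of gene counts between 2 groups, which was run as an alternative with others: library size alone, DESeq2 1.42.0, its size factors, other filters, separate fits, a replicate block, GC content and length trends, thinning, a fold limit, a prior count of 2 and leaving out each library. Standard errors are the log2 fold change divided by the square root of its F. The 95% intervals of log2 fold changes use the normal quantile with these standard errors and are narrower than the test itself would give. Symbols, lengths and positions came from GENCODE 44 on the same assembly (45283 genes matched). The test was run on simulated counts, where it recovered 187 of 200 genes changed 2-fold among 19222 in resistant 786-O against parental 786-O and 175 of 200 among 19176 in resistant A498 against parental A498. False calls numbered 11 and 8. The 200 genes are far fewer than were called in the data, and genes of low counts were not among them. The recovery therefore does not cover genes of low counts or a fit in which most genes change. The precision of a count is set by library depth, and counting intervals are exact binomial at 95%.

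Named genes were the 10 enzymes, genes of the 60-gene list called with an absolute log2 fold change over 1, 5 CPM or more on average in the group where they were high and no overlap of libraries (up to 12 for each comparison), genes within 1 Mb of B3GALNT1 at a mean of at least 1 CPM and the 5 nearest in pattern. The enzymes and lists were chosen with earlier results of these data known. Other genes of the list were named for their role after their values were seen.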

Additional observations from a re-analysis of the deposited data

Results flagged for a closer look

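In 6 enzymes the log2 change of resistant A498 against parental A498 and that of resistant 786-O against parental 786-O differed by the interaction term of the edgeR quasi-likelihood fit. The difference between the changes was 2.54 (SE 0.106, adjusted p = 2.2e-11) for UGCG, 1.18 (SE 0.121, adjusted p = 5.2e-07) for ST3GAL5 and 0.79 (SE 0.0678, adjusted p = 7.4e-08) for B4GALT5. It was -2.10 (SE 0.113, adjusted p = 3.8e-10) for A4GALT, -1.03 (SE 0.0666, adjusted p = 2.9e-09) for ST3GAL2 and -1.03 (SE 0.0738, adjusted p = 9.8e-09) for B4GALNT1. Of all genes tested, 68.3% differed in this way. The resistant A498 libraries stood nearer to parental 786-O than to parental A498, and the part of that in these values was not tested.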

How the results depend on the processing

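Counts of called enzymes and list genes and the enzyme ratios moved by less than 1.5 times or the replicate spread in 265 recomputed values, and 13 counts moved by more. With an absolute log2 fold change over 1 also required, 1 of the other 9 enzymes was called in resistant against parental 786-O, 1 in resistant A498 against parental 786-O and 2 between the parental lines. The list of 60 then gave 14 calls in resistant against parental 786-O, 12 in resistant against parental A498, 13 against parental 786-O, 16 between the parental lines and 21 for the difference of changes. The test of gene counts named in the study's methods, run here on the raw counts without adjustment or scaling for depth, called 1 enzyme in resistant against parental 786-O, 3 between the parental lines and 14 list genes in resistant against parental A498. It also turned the log2 fold changes of B4GALT5 to 0.14 and ST3GAL5 to 0.0262 in resistant 786-O, and of UGCG to -0.65, B4GALT5 to -0.58 and ST3GAL5 to -0.13 in resistant A498 against parental 786-O. Removing trends with GC content and length turned A4GALT to -0.21, B4GALNT1 to -0.20 and B4GALT6 to 0.0900 in resistant 786-O, B4GALT6 to -0.0783 between the parental lines and its difference of changes to -0.47. B4GALT5 in resistant 786-O turned to 0.10 with library size alone and 0.0181 with 10 counts in every library, and ranged from -0.0689 to 0.0108 without single libraries. ST8SIA1 between the parental lines turned to -0.39 after thinning and ranged from -0.42 to 0.73 without single libraries. The causes were not tested.

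Without single libraries 3 to 5 enzymes were called in resistant 786-O, 7 in resistant against parental A498, 4 to 7 against parental 786-O, 6 between the parental lines and 6 for the difference of changes. The 4 calls came without replicate 1 of parental 786-O or replicate 2 of resistant A498. Without replicate 2 of resistant 786-O the log2 fold change of B3GALNT1 was -6.135, and with a prior count of 2 it was -6.97 in resistant against parental A498.

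Replicates of the same number did not deviate together, with 18 correlations of -0.184 to 0.201 against -0.206 to 0.159 for 36 pairs of other numbers. With the replicate number as a block, 4 enzymes and 38 list genes were called in resistant 786-O, 7 and 38 in resistant against parental A498, and 7 and 35 against parental 786-O. Paired ratios could not go below p = 0.25 in the exact permutation. Depth limited B3GALT4 and B3GALNT1 in resistant A498, where counts of 0 to 7 give wide ratios.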
